A study of Mus musculus with 6 samples.

Results

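NRF2, encoded by Nfe2l2, its inhibitor KEAP1 and 8 of the antioxidant enzymes, carriers and stress genes known as NRF2 targets were followed in the liver of mice whose fathers had received nicotine or saline. The 10 genes, Nfe2l2, Keap1, Gclc, Gclm, Slc7a11, Txnrd1, Srxn1, Nqo1, G6pdx and Osgin1, were taken by their GENCODE M21 symbols out of 54532 genes in each deposited table, and all 10 were found. Liver RNA had been sequenced from 6 male C57BL/6J mice, adults of about 8 weeks, and 1 library was made per mouse. The 3 mice of the paternal nicotine group had fathers treated with nicotine, and the 3 mice of the paternal saline group had fathers treated with saline. The labels record no treatment of the offspring themselves, no dose, and not how many fathers or litters are represented, and p-values therefore cover only how much these 6 animals vary.

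In unstressed cells KEAP1 holds NRF2 in the cytoplasm and hands it to a ubiquitin ligase, so that it is degraded. Electrophiles and oxidants modify cysteines of KEAP1, NRF2 then accumulates, enters the nucleus and, with a small MAF partner, binds antioxidant response elements in its target genes. Because this control acts on the protein, the mRNA levels of Nfe2l2 and Keap1 need not show how active the pathway is. In liver the targets make glutathione, reduce thioredoxin and peroxiredoxin, supply NADPH and detoxify drugs and reactive metabolites.

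The targets did not move one way. Gclc, which encodes the catalytic subunit of the enzyme that limits glutathione synthesis, fell in the paternal nicotine group, to 57.6 ± 6.04 RPKM against 115 ± 20.9 RPKM in the paternal saline group (SD, n = 3 each). Txnrd1, for cytosolic thioredoxin reductase, rose, at 12.7 ± 1.03 RPKM in the paternal nicotine group against 8.37 ± 0.423 RPKM in the paternal saline group, and so did Srxn1, for the sulfiredoxin that repairs overoxidised peroxiredoxins, at 22.9 ± 2.32 RPKM in the paternal nicotine group against 14.7 ± 1.15 RPKM in the paternal saline group. Nfe2l2, Keap1 and the widely used NRF2 reporter gene Nqo1 did not pass the test. RPKM scale the reads of a gene to its length and to the size of the library. Fold changes are differences of log2(RPKM + 1), a scale on which changes of low genes come out too small. A gene passed at an adjusted p under 0.05 in limma, with Benjamini-Hochberg adjustment over the 8773 genes that averaged 1 RPKM or more. Of the 10 genes 9 reached that mean, 2 rose, 1 fell and 6 did not pass. Of all genes tested 9.28% passed, 3.89% higher and 5.39% lower in the paternal nicotine group. The median log2 fold change was 0.06 over the 9 genes and -0.02 over all genes tested. The calls on Gclc, Txnrd1 and Srxn1 depended on 3 mice per group: none of the 3 passed without paternal nicotine replicate 1, without paternal nicotine replicate 2 or without paternal saline replicate 1, and Gclc alone passed without paternal saline replicate 3. Their log2 fold changes kept their signs in every one of these fits.

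**Figure D1:**
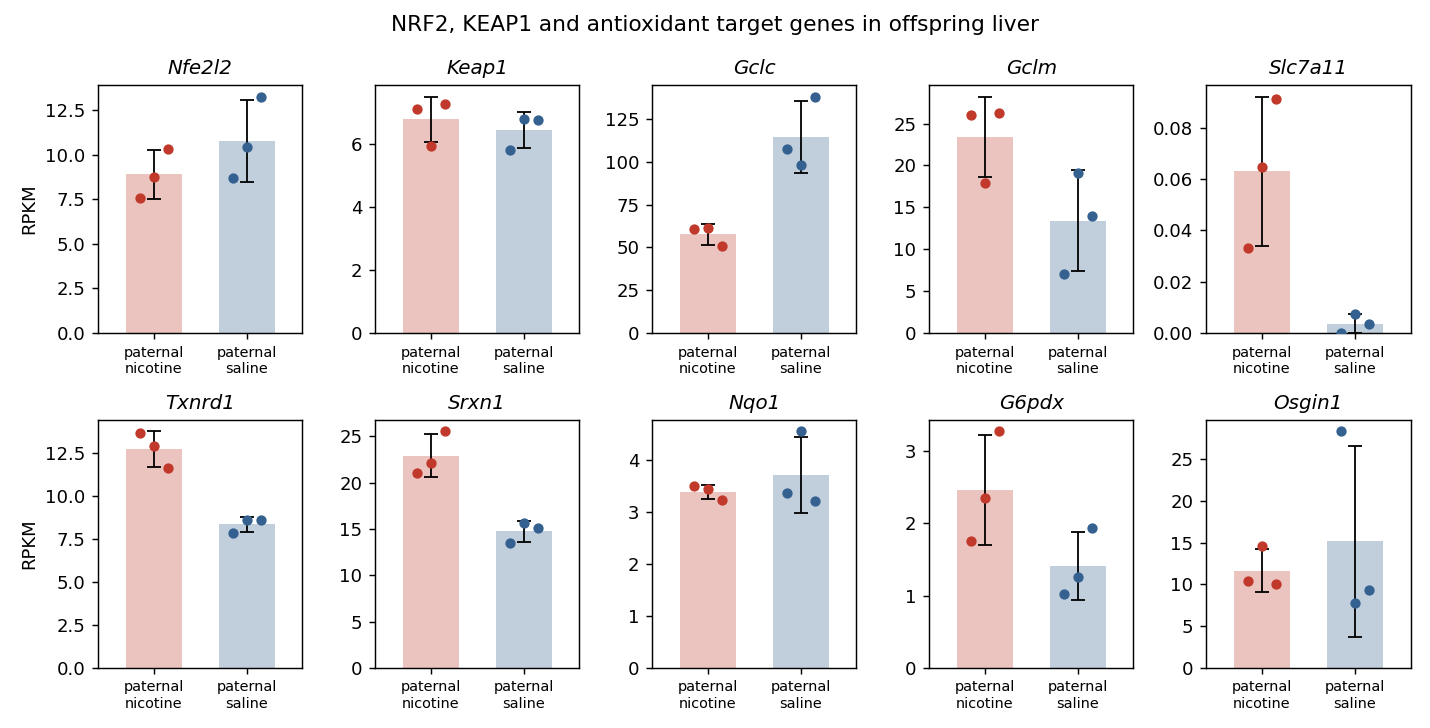
RPKM of the 10 genes in each liver, 1 panel per gene with its own axis from 0, with points for the 3 mice of the paternal nicotine group (red) and of the paternal saline group (blue), bars for means and whiskers for SD. The groups lie apart for Gclc, Txnrd1, Srxn1 and Slc7a11 and overlap for the other 6 genes.

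The total of reads per library was 62072258 to 70089315 in the paternal nicotine group and 61837267 to 66928579 in the paternal saline group. The liver identity of the samples was plain from albumin, Alb, at 11098 to 12486 RPKM in the paternal nicotine group and 19914 to 28635 RPKM in the paternal saline group, and from the hepatocyte factor Hnf4a, at 59.0 to 74.0 RPKM in the paternal nicotine group and 46.0 to 67.8 RPKM in the paternal saline group. Several marker sums moved with the group, and their part in the results on the antioxidant genes was not tested; in bulk tissue fewer cells of a type and less RNA per cell cannot be told apart. The 8 hepatocyte markers summed to 14985 to 15954 RPKM in paternal nicotine livers, against 25896 to 32940 RPKM in paternal saline livers; Alb holds most of that sum, and 4 of the 8 had a higher mean in the paternal nicotine group. Of 11 neutrophil markers 10 had a higher mean in the paternal nicotine group, while Mpo, near 0 in both groups, had a lower one. Of the 11, 3 averaged 1 RPKM or more and 1 passed, S100a8. The 11 summed to 26.1 to 85.9 RPKM in paternal nicotine livers, against 5.94 to 7.06 RPKM in paternal saline livers. S100a8, at 18.3 to 37.1 RPKM, and S100a9, at 1.64 to 35.2 RPKM, held most of the sum in paternal nicotine livers. Ly6g was at 0 in all 3 paternal saline livers. The 6 cholangiocyte markers summed to 20.1 to 21.0 RPKM in paternal nicotine livers, against 8.68 to 11.4 RPKM in paternal saline livers. The 11 Kupffer cell and macrophage markers each had a higher mean in the paternal nicotine group, but their sums overlapped at 356 to 1091 RPKM there against 362 to 706 RPKM in paternal saline livers, and so did the sums for stellate, endothelial, T and natural killer, B and erythroid cells. Transcripts encoded in mitochondria made up 14.98% to 17.2% of all RPKM in paternal nicotine livers, against 18.6% to 19.2% in paternal saline livers. Pancreatic acinar markers summed to 3410 RPKM in paternal nicotine replicate 2 and to at most 5.33 RPKM in the other 5 libraries; without that library Gclc, Txnrd1 and Srxn1 had log2 fold changes of -1.02, 0.54 and 0.62 at adjusted p = 0.0661, 0.0885 and 0.0847.

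The stretches around the transcription start are shown for Srxn1 and Txnrd1, which both rose, and for Nqo1, which did not pass. RefSeq's table for GRCm38.p6 held promoters for 9 of the 10 genes, each of 300 bases, 250 before and 50 after a start, and none for Gclc. They were searched on both strands for TGACNNNGC, the core of the antioxidant response element, and for TGANTCA, the element of AP-1 factors. A sequence can hold both at once, but no matches overlapped in these promoters. Across all 32851 promoters of RefSeq the share with the first motif was 12.4% and with the second 7.81%. A match describes the letters and is not a measured binding site. Capitals mark the matches, and a match on the opposite strand reads as its reverse complement.
Srxn1, chr2:152105274-152105573, plus strand: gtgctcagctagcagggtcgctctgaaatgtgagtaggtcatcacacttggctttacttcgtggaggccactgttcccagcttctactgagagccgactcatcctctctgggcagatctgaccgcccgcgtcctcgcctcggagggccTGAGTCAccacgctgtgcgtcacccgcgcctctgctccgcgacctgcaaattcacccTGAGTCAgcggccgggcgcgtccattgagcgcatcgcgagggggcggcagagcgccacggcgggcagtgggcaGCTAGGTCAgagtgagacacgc
Txnrd1, the second of 3 starts, chr10:82858956-82859255, plus strand: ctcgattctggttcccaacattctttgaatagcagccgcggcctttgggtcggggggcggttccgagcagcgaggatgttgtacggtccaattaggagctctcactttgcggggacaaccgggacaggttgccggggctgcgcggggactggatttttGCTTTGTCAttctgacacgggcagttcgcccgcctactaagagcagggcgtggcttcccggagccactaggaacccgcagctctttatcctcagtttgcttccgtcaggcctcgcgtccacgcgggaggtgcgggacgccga
Nqo1, chr8:107403156-107403455, minus strand: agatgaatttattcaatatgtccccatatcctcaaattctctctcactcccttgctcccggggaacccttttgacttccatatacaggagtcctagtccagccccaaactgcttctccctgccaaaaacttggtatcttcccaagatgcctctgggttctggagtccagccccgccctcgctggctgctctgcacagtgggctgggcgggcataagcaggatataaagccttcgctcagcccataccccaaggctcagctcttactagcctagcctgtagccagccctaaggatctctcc
The Srxn1 stretch held 1 antioxidant response element core, starting 28 bases after the start site, and 2 AP-1 elements, at 102 and 45 bases before it. The AP-1 element at 45 bases is followed by gc. It so differs from the first motif only by G in place of C, and such forms were not counted as the core. The stretch at the second Txnrd1 start held 1 core, 92 bases before the start, and the stretches at its other starts held neither motif. The Nqo1 stretch held neither, and bases more than 250 before its start were not searched. Whether a motif goes with a change in level was not tested. The core was also present once in each of the promoters of Nfe2l2, Gclm and G6pdx, which did not pass, and an AP-1 element in that of Osgin1. Read on the opposite strand, the Osgin1 element is also followed by gc and differs from the first motif in the same way. So 5 of the 9 genes held the core in at least 1 promoter. These 9 genes have 11 promoters, and the 12.4% above is a share of promoters, not of genes.

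The regulators come first. Nfe2l2 (ENSMUSG00000015839, chromosome 2, 75675513 to 75704641, GRCm38), which encodes NRF2, had 7.60, 8.74 and 10.3 RPKM in paternal nicotine livers, against 8.69, 10.4 and 13.3 RPKM in paternal saline livers. The ranges overlapped and the gene did not pass (log2 fold change -0.24, SE 0.18, limma adjusted p = 0.436). Keap1 (ENSMUSG00000003308, chromosome 9, 21229730 to 21239361) had 7.10, 5.95 and 7.27 RPKM in paternal nicotine livers, against 5.80, 6.79 and 6.76 RPKM in paternal saline livers. No library stood out, and the log2 fold change was 0.06 with an unadjusted 95% interval of -0.21 to 0.33 (limma adjusted p = 0.769). Keap1 shares exonic bases with 1 gene on the opposite strand, and the labels do not say if strand was kept.

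Glutathione is made from glutamate, cysteine and glycine, and its first and limiting step joins glutamate to cysteine in a ligase of a catalytic subunit, Gclc, and a modifier subunit, Gclm. Gclc (ENSMUSG00000032350, chromosome 9, 77754535 to 77794485) had 60.6, 61.5 and 50.6 RPKM in paternal nicotine livers, against 108, 98.0 and 138 RPKM in paternal saline livers. All 3 paternal nicotine livers lay below all 3 paternal saline livers, and the log2 level of Gclc fell by 0.97 (SE 0.15; adjusted p = 0.0185 in limma). Gclm (ENSMUSG00000028124, chromosome 3, 122245557 to 122270732) had 26.1, 17.9 and 26.3 RPKM in paternal nicotine livers, against 7.10, 19.1 and 14.0 RPKM in paternal saline livers. Paternal nicotine replicate 2 lay below paternal saline replicate 2, and Gclm did not pass (log2 fold change 0.84, SE 0.36, limma adjusted p = 0.207). Its fold change leaned on 1 mouse: it was 0.47 without paternal saline replicate 1, the lowest of the 6.

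The ratio of Gclc to Gclm RPKM was 2.32, 3.44 and 1.92 in paternal nicotine livers, against 15.1, 5.12 and 9.87 in paternal saline livers. Every paternal nicotine ratio was below every paternal saline ratio; this ratio was chosen after the values were seen and was not tested. Gclm transcripts share 287 bases at 97.9% identity with Ppia, for cyclophilin A, and in all 13 genes share at least 200 bases at 95% identity or more with them. The most abundant of these, Gm10123, matches over 244 bases at 100% identity and had 516, 501 and 538 RPKM in paternal nicotine livers, against 778, 626 and 412 RPKM in paternal saline livers, far above Gclm itself. Gclm also shares 296 exonic bases with Gm17494 on the opposite strand and 244 with Gm6061 on the same strand. The labels do not say how reads that match several genes were assigned, and the share of such reads in Gclm was not tested.

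**Figure D2:**
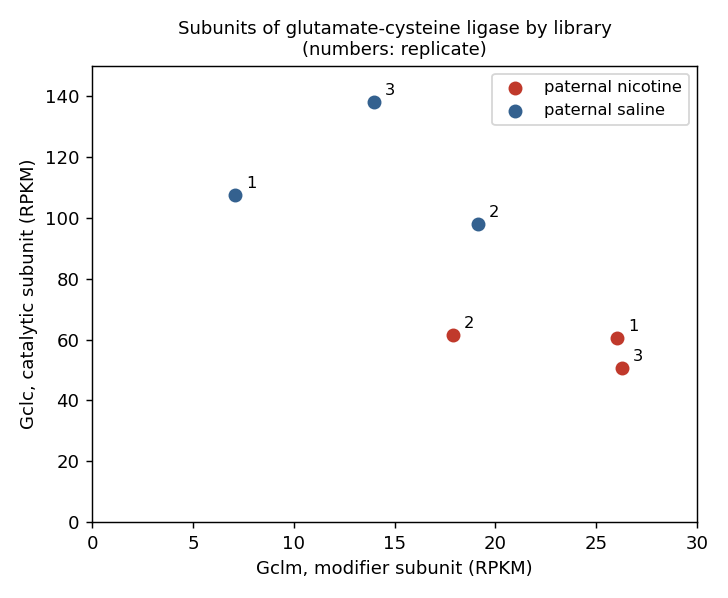
RPKM of Gclc, the catalytic subunit, against RPKM of Gclm, the modifier subunit, with 1 point per liver and the replicate number beside it. The paternal nicotine livers (red) lie at 50.6 to 61.5 RPKM of Gclc, below the 98.0 to 138 RPKM of the paternal saline livers (blue), while their Gclm ranges overlap.

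Slc7a11 (ENSMUSG00000027737, chromosome 3, 49892526 to 50443614) encodes the exchanger that brings in cystine for glutathione synthesis, and it is also a known target of the stress factor ATF4. It was barely detected, at 0.0332, 0.0646 and 0.0913 RPKM in paternal nicotine livers, against 0, 0.00749 and 0.00347 RPKM in paternal saline livers. These values correspond to 37, 72 and 115 reads in paternal nicotine livers and 0, 9 and 4 reads in paternal saline livers; the 0 allows up to 3 reads, and such limits cover counting error only. The groups did not overlap, but the mean was under 1 RPKM, so the gene was not part of the main test. When all 25531 genes with a read were tested, its log2 fold change was 0.08 (SE 0.02, limma adjusted p = 0.18). Slc7a11 transcripts share 373 bases at 95.4% identity with the alpha-tubulin gene Tuba1c, and 8 other genes have a like stretch. Tuba1c had 56.8, 51.5 and 61.5 RPKM in paternal nicotine livers, against 31.4, 42.5 and 30.7 RPKM in paternal saline livers, and its log2 level rose by 0.69 (SE 0.15; adjusted p = 0.0419 in limma). How many of the Slc7a11 reads are tubulin reads was not tested.

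Thioredoxin reductase and sulfiredoxin act on the other thiol system of the cytosol. Txnrd1 (ENSMUSG00000020250, chromosome 10, 82833951 to 82897712) had 13.7, 12.9 and 11.6 RPKM in paternal nicotine livers, against 7.88, 8.63 and 8.59 RPKM in paternal saline livers. The lowest paternal nicotine liver was above the highest paternal saline liver, and the log2 level of Txnrd1 rose by 0.55 (SE 0.09; adjusted p = 0.0207 in limma). Srxn1 (ENSMUSG00000032802, chromosome 2, 152105516 to 152111376) had 21.1, 22.2 and 25.5 RPKM in paternal nicotine livers, against 13.4, 15.7 and 15.1 RPKM in paternal saline livers. Here too the groups lay apart, and Srxn1 rose by 0.60 (SE 0.11, limma adjusted p = 0.0242). Of the 9 tested genes these and Gclc were the 3 whose groups did not overlap, while 33.6% of all tested genes had groups that did not overlap. Gclc, Txnrd1 and Srxn1 share no exonic bases with another gene and have no near-identical copy at 95% identity over 200 bases. Without the filter on low values none of the 10 genes passed in limma, with 4 at an unadjusted p under 0.05, and Gclc, Txnrd1 and Srxn1 were at adjusted p = 0.0586, 0.0602 and 0.0709.

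Nqo1, for a quinone reductase that spares cells the redox cycling of quinones, did not pass. Nqo1 (ENSMUSG00000003849, chromosome 8, 107388225 to 107403206) had 3.49, 3.44 and 3.23 RPKM in paternal nicotine livers, against 3.36, 4.55 and 3.22 RPKM in paternal saline livers. Its log2 fold change was -0.09 with an unadjusted 95% interval of -0.40 to 0.22 (limma adjusted p = 0.689), and the upper end of that interval lies below the estimates for Txnrd1 and Srxn1; the difference between the genes was not tested. G6pdx (ENSMUSG00000031400, chromosome X, 74409483 to 74429194), for the glucose-6-phosphate dehydrogenase that opens the pentose phosphate pathway and yields NADPH, had 1.76, 2.36 and 3.27 RPKM in paternal nicotine livers, against 1.02, 1.26 and 1.93 RPKM in paternal saline livers. The ranges overlapped by 1 liver and the gene did not pass (log2 fold change 0.52, SE 0.21, limma adjusted p = 0.184). G6pdx shares exonic bases with Ikbkg on the opposite strand. Osgin1 (ENSMUSG00000074063, chromosome 8, 119434124 to 119446256), an oxidative stress-induced growth inhibitor, had 10.4, 14.6 and 9.999 RPKM in paternal nicotine livers, against 28.3, 7.77 and 9.37 RPKM in paternal saline livers. Paternal saline replicate 1 stood far above the other 5 libraries, and the sign of the fold change turned with it: -0.15 with all libraries (SE 0.47, limma adjusted p = 0.871) and 0.39 without that library (adjusted p = 0.316).

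**Figure D3:**
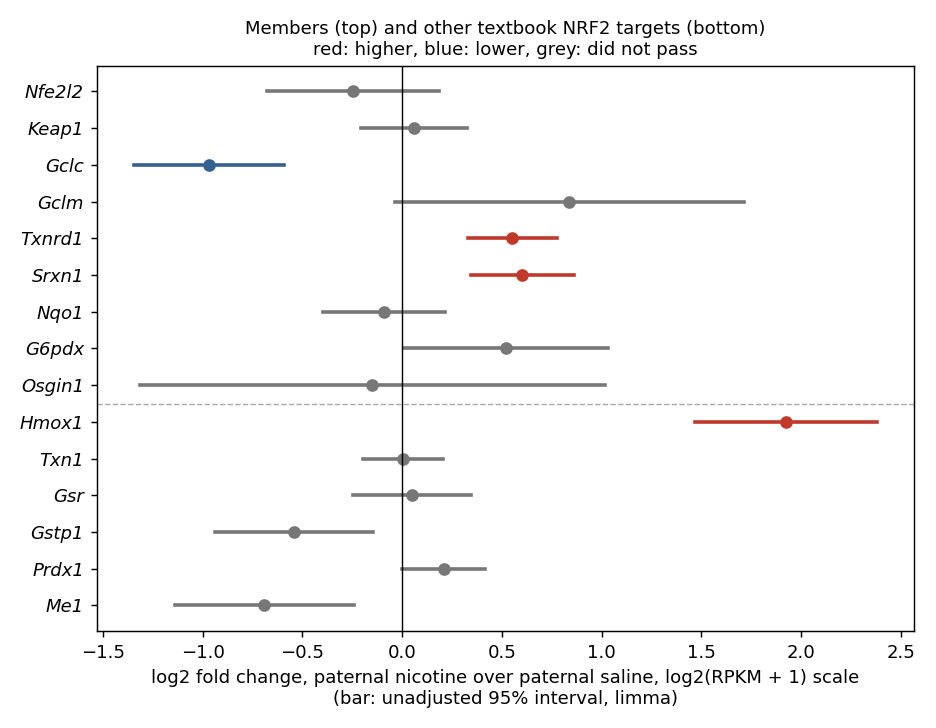
Log2 fold changes, paternal nicotine over paternal saline, on the log2(RPKM + 1) scale, with unadjusted 95% intervals from limma; above the dashed line are the 9 tested genes and below it 6 other textbook NRF2 targets. Gclc (blue) lies at -0.97, Txnrd1 and Srxn1 (red) at 0.55 and 0.60, and Hmox1 (red) at 1.92.

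Per unit of length the order of the levels was led by Gclc in both groups. In paternal nicotine livers Gclm and Srxn1 followed, with overlapping ranges, then Txnrd1, Osgin1 and Nfe2l2, each overlapping its neighbour, then Keap1, Nqo1 and G6pdx, the last 2 overlapping, and Slc7a11. In paternal saline livers Gclc lay apart from Osgin1, Srxn1, Gclm and Nfe2l2, each of which overlapped the next, and then came Txnrd1, Keap1, Nqo1, G6pdx and Slc7a11, each apart from the next. The mean of Gclc was 2.46 times that of the next gene in the paternal nicotine group and 7.55 times in the paternal saline group. These genes have 1 to 8 annotated transcripts, all of which enter the length in the deposited RPKM, so levels of different genes compare only roughly.

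Among other textbook targets of NRF2, Hmox1, for the inducible heme oxygenase, had the largest fold change. It had 44.0, 49.5 and 49.4 RPKM in paternal nicotine livers, against 8.61, 14.0 and 13.5 RPKM in paternal saline livers, and its log2 level rose by 1.92 (SE 0.19; adjusted p = 0.00648 in limma). The other 5 did not pass. Thioredoxin, Txn1, averaged 253 ± 11.9 RPKM in the paternal nicotine group and 252 ± 14.6 RPKM in the paternal saline group (SD, n = 3 each). Glutathione reductase, Gsr, averaged 30.5 ± 3.61 RPKM in the paternal nicotine group and 29.4 ± 3.13 RPKM in the paternal saline group. Neither differed by more than the spread between mice. The peroxiredoxin gene Prdx1 averaged 257 ± 19.2 RPKM in the paternal nicotine group and 222 ± 6.77 RPKM in the paternal saline group. Gstp1, a glutathione S-transferase gene with near-identical copies, averaged 897 ± 44.4 RPKM in the paternal nicotine group and 1325 ± 266 RPKM in the paternal saline group (limma adjusted p = 0.0974, and 0.0337 without paternal saline replicate 3). Me1, for an NADPH-forming malic enzyme, averaged 9.25 ± 2.04 RPKM in the paternal nicotine group and 15.4 ± 2.14 RPKM in the paternal saline group (limma adjusted p = 0.0723).

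Of 31 tested detoxification, heme and iron targets of NRF2, of 34 listed, 24 had a negative fold change. The test passed 8 of the 31 as lower and 1 as higher and left 22 uncalled, so 29.0% passed. Of all genes tested 9.28% passed, 5.39% as lower and 3.89% as higher, and 4619 of 8773 had a negative fold change. The median log2 fold change was -0.46 in the list against -0.02 over all genes. The 1 that rose was Hmox1. Ces1g, a carboxylesterase gene, fell by 1.25 on the log2 scale, to 29.9 ± 0.764 RPKM in the paternal nicotine group against 72.9 ± 9.01 RPKM in the paternal saline group (limma adjusted p = 0.00476). Ephx1, for microsomal epoxide hydrolase, fell to 60.0 ± 9.05 RPKM in the paternal nicotine group against 122 ± 9.83 RPKM in the paternal saline group (limma adjusted p = 0.0113), and Abcc3, for an exporter of conjugates, fell to 5.31 ± 0.705 RPKM in the paternal nicotine group against 12.5 ± 2.74 RPKM in the paternal saline group (limma adjusted p = 0.0178). Hmox1 and Ces1g passed in each of the 6 fits that left out 1 library. Ephx1 did not pass without paternal nicotine replicate 2 or paternal saline replicate 1, nor Abcc3 without paternal nicotine replicate 1 or 2. The count of genes that passed in this list was 4 without paternal nicotine replicate 1, 2 without paternal nicotine replicate 2 and 5 without paternal saline replicate 1.

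Glutathione genes around Gclc and Gclm moved both ways. Of 20 tested genes of glutathione supply, recycling and use, of 26 listed, 3 fell, 1 rose and 16 did not pass (median log2 fold change -0.17). The share that passed was 20% in this list and 9.28% over all genes tested. Cth, whose enzyme makes cysteine from cystathionine, had 54.0, 70.5 and 75.7 RPKM in paternal nicotine livers, against 205, 196 and 167 RPKM in paternal saline livers. The groups lay far apart, and the log2 level of Cth fell by 1.5 (SE 0.15; adjusted p = 0.00648 in limma), and it passed without any 1 library. Chac1, for an enzyme that breaks glutathione down and a known ATF4 target, had 16.5, 11.4 and 7.41 RPKM in paternal nicotine livers, against 1.32, 2.82 and 1.29 RPKM in paternal saline livers. It rose by 2.16 (SE 0.33, limma adjusted p = 0.0177), while its relative Chac2 fell to 6.33 ± 0.160 RPKM in the paternal nicotine group against 10.5 ± 1.04 RPKM in the paternal saline group (limma adjusted p = 0.0148). Glrx5, a mitochondrial glutaredoxin gene of iron-sulfur cluster assembly, fell to 49.8 ± 4.08 RPKM in the paternal nicotine group against 73.5 ± 6.33 RPKM in the paternal saline group (limma adjusted p = 0.0281). With 1 library left out, Chac2 failed to pass without paternal nicotine replicate 1 or 2, Chac1 passed only without paternal nicotine replicate 3 or paternal saline replicate 2, and Glrx5 only without paternal nicotine replicate 3. The list had 1 gene that passed without paternal nicotine replicate 1 or 2 and 2 without paternal saline replicate 1.

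**Figure D4:**
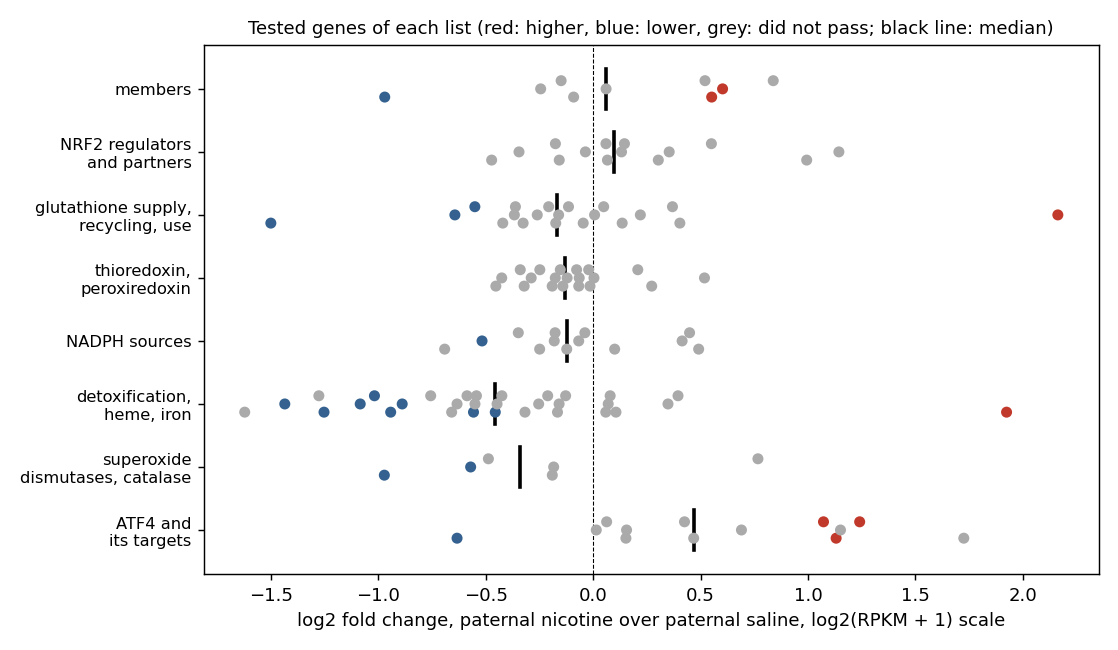
Log2 fold changes of the tested genes, paternal nicotine over paternal saline, on the log2(RPKM + 1) scale: each point is a gene of the list named at the left, red where it rose, blue where it fell and grey where it did not pass, and the black line is the median of the list. The medians run from -0.46 for the detoxification, heme and iron targets to 0.47 for ATF4 and its targets. The ATF4 list includes Atf3, Asns and Nupr1, which averaged under 1 RPKM in the paternal saline group.

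None of 14 tested NRF2 regulators and partners, of 18 listed, passed in limma, nor any of 12 in limma voom, with 5 and 4 at an unadjusted p under 0.05, and their median log2 fold change was 0.10. None of 20 tested thioredoxin, peroxiredoxin and methionine sulfoxide reductase genes passed in limma, nor any of 18 in limma voom. At an unadjusted p under 0.05 were 7 in limma and 6 in limma voom. Of the 20, 16 had a negative fold change, against 4619 of all 8773 genes tested, and the median was -0.13. Of 13 tested NADPH source genes 1 passed, or 7.69%, against 9.28% of all genes tested. This gene was Mthfd1 of the folate cycle (limma adjusted p = 0.0273). It fell to 15.5 ± 0.540 RPKM in the paternal nicotine group against 22.7 ± 2.22 RPKM in the paternal saline group. It did not pass without paternal nicotine replicate 1, 2 or 3 or without paternal saline replicate 1 or 2. Of 6 genes of superoxide dismutases and catalase 2 fell, or 33.3%, while 5.39% of all genes tested fell. Ccs, the copper chaperone of superoxide dismutase, fell to 206 ± 7.76 RPKM in the paternal nicotine group against 306 ± 12.8 RPKM in the paternal saline group (limma adjusted p = 0.0121). Cat, for the peroxisomal catalase that breaks down hydrogen peroxide, fell to 372 ± 48.1 RPKM in the paternal nicotine group against 737 ± 148 RPKM in the paternal saline group (limma adjusted p = 0.0266). Ccs did not pass without paternal nicotine replicate 1 or 2, and Cat passed only without paternal saline replicate 2.

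ATF4 shares Slc7a11 with NRF2, so Atf4 and its targets were set beside the antioxidant genes. Atf4 itself did not pass (limma adjusted p = 0.946). It averaged 32.3 ± 1.83 RPKM in the paternal nicotine group and 32.1 ± 3.62 RPKM in the paternal saline group. These are mRNA levels, and the data hold no level of the ATF4 protein. Among 13 tested genes (17 were listed) 3 rose and 1 fell, while 9 did not pass. The share that passed was 30.8% in this list and 9.28% over all genes tested. The median log2 fold change was 0.47 against -0.02 over all genes. Atf3, Asns and Nupr1 averaged 0.425, 0.374 and 0.248 RPKM in the paternal saline group, under the 1 RPKM of the filter. They entered the test only through their paternal nicotine values, and the share and the median include them. With a mean of at least 5 RPKM, 6 genes of the list were tested, 1 rose and 1 fell. Atf3, a stress-induced transcription factor gene, rose to 2.34 ± 0.0747 RPKM in the paternal nicotine group against 0.425 ± 0.219 RPKM in the paternal saline group (limma adjusted p = 0.00699), and it passed without any 1 library. The fits that left out a library kept the genes admitted over all 6 libraries. Ddit3, for the stress factor CHOP, rose to 8.07 ± 1.05 RPKM in the paternal nicotine group against 3.18 ± 0.872 RPKM in the paternal saline group (limma adjusted p = 0.0173); it shares exonic bases with Mars on the opposite strand. Asns, for asparagine synthetase, rose to 1.93 ± 0.608 RPKM in the paternal nicotine group against 0.374 ± 0.0498 RPKM in the paternal saline group (limma adjusted p = 0.0192). Shmt2, for the mitochondrial serine hydroxymethyltransferase, fell to 8.31 ± 1.42 RPKM in the paternal nicotine group against 13.3 ± 0.572 RPKM in the paternal saline group (limma adjusted p = 0.0389) and did not pass in any of the 6 fits that left out a library. Ddit3 passed only without paternal nicotine replicate 1 or 3 or paternal saline replicate 2, and Asns only without paternal nicotine replicate 1. The list had 1 gene that passed without paternal nicotine replicate 2, paternal saline replicate 1 or paternal saline replicate 3, and 2 without paternal nicotine replicate 3 or paternal saline replicate 2.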

How the data were processed

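Per the labels' protocols, Trizol was used on the livers and libraries were made with a TruSeq DNA kit. For each of the 6 libraries the authors deposited RPKM of 54532 genes by Ensembl identifier, with no coordinates. The submitters' processing notes name CASAVA, TopHat and mm8. No counting program, annotation or rule for multiply matching reads is named in the labels. The deposited gene lengths equalled the row's summed exon length in 0.176% of rows and were not used.

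Symbols and coordinates came from GENCODE M21 (GRCm38), which held 99.9% of the identifiers. Values under 1e-06 RPKM are placeholders for no read and were set to 0. Their sizes gave the library totals, and 98.8% of them matched a length summed over all transcripts of a gene within 1e-06. With these totals 95.3% of the 25531 genes with a read gave whole reads within 0.01. Levels of genes with different numbers of transcripts may not compare exactly.

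The fit was limma 3.58.1 (R 4.3.3, trend and robust) on log2(RPKM + 1) for genes that averaged 1 RPKM or more, all 6 libraries, no covariate, adjusted p under 0.05. In a simulation of this comparison with 8773 genes, 13 of 50 genes with a 1.5-fold change were recovered. At 2-fold 31 of 50 were recovered and at 4-fold 42 of 50, with 5 false calls. The changes were added on the log2(RPKM + 1) scale, with noise independent between genes. The simulation gave 139 calls against 814 in the data, so its adjustment was stricter. Alternatives were a replicate block, 2 rescalings, another pseudocount, other filters, another variance model, limma voom on the recovered reads and leaving out each library. The 10 genes, the lists and the tests were chosen with earlier results of these data known. The rule for named genes takes the 10 genes, up to 4 genes of lowest p that passed per list, and Hmox1, Txn1, Gsr, Gstp1, Prdx1 and Me1. Marker genes, Tuba1c, Gm10123 and Atf4 were added after their values were seen. Of a repeated symbol the row with the highest mean was used. Overlaps of at least 50 exonic bases came from bedtools and copies of at least 200 bases at 95% identity from blastn.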

Additional observations from a re-analysis of the deposited data

How the results depend on the processing

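Of the 10 antioxidant genes, Gclc, Txnrd1 and Srxn1 passed under median ratio rescaling, quantile normalization, a pseudocount of 0.1, a mean of at least 5 RPKM, no trend and no robust fit, and limma voom, and 0 passed without a filter on low values (4 at an unadjusted p under 0.05) or with a replicate block (also 4). With 1 library left out 0 to 3 passed. The cause was not tested. The labels do not say whether the replicate numbers pair the mice. Deviations of same-numbered libraries correlated at 0.0071, 0.0564 and 0.0494, and not every library correlated best with its own number. Taken from means of 3 libraries, these correlations cannot settle whether same-numbered mice belong together. With the replicate block 383 genes of the whole table passed, against 814, and 367 passed without a filter, where 25531 genes were tested; 182 to 658 passed with 1 library left out, fewest without paternal nicotine replicate 2. With the replicate block, 2 glutathione genes, 0 NADPH genes, 5 detoxification genes and 1 gene of the superoxide list passed. Without a filter the counts were 2, 0, 3 and 1, and 2 ATF4 genes passed. With a mean of at least 5 RPKM 2 NADPH genes and 2 ATF4 genes passed. Of the superoxide list 1 gene passed under quantile normalization. Under voom 1 of the 5 genes of that list that could be tested passed, and Ccs was not among the 5. With 1 library left out, 0 to 1 NRF2 regulators, 1 to 5 glutathione genes, 0 to 1 NADPH genes, 2 to 9 detoxification genes, 0 to 2 of the superoxide list and 1 to 3 ATF4 genes passed. Among genes that did not pass, signs turned when a library was left out for Keap1 (-0.0047 to 0.14), Nqo1 (-0.17 to 0.033), Osgin1 (-0.48 to 0.39), Txn1 (-0.042 to 0.041) and Gsr (-0.043 to 0.13). With 3 mice per group, changes near 1.5-fold were mostly missed in the simulation, which gave 139 calls and so had a stricter adjustment than the data.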
